A study of Homo sapiens with 24 samples.

Results

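HCT116 cells transfected with siCARLo-3 were compared with HCT116 cells transfected with a control siRNA, siCTRL, over all 189 endogenous genes of an nCounter panel built around the cell cycle. The members are the 6 libraries that carry those labels, 3 of siCARLo-3 and 3 of siCTRL, out of 24 libraries in the series. The series holds 8 groups of 3 libraries, 6 groups in HCT116 and 2 in the prostate cancer line PC3. HCT116 is a human colorectal carcinoma line. Both groups were transfected at 50 nM siRNA with Lipofectamine RNAiMAX and share every other label. CARLo stands for cancer-associated region long non-coding RNA, and per the series title the targets lie at 8q24.21. No probe on the panel detects a CARLo transcript, so knockdown was not checked, and no siRNA sequence is printed here. The epithelial gene CDH1 was above background in all 6 libraries and the mesenchymal gene TWIST1 in 0 of 6.

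Passage through the cell cycle is driven by cyclins and their kinases. D-type cyclins with CDK4 and CDK6, then cyclin E with CDK2, phosphorylate the pocket proteins RB1, RBL1 and RBL2, which releases E2F transcription factors to switch on genes of DNA replication. CDKN1A opposes this through its product p21, which inhibits those kinases. Later steps depend on ordered protein destruction by the ubiquitin ligases SCF and APC/C.

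Endogenous counts were 64269, 92559 and 55893 in the siCARLo-3 libraries, against 125611, 130777 and 89835 in the siCTRL libraries, and 169 to 178 genes lay above background in siCARLo-3, against 168 to 172 in siCTRL. Endogenous counts per count of the spiked positive controls averaged 7.54 ± 0.823 in siCARLo-3 and 10.8 ± 0.998 in siCTRL (SD, n = 3 each; exact permutation test over libraries, two-sided p = 0.1, the smallest that 3 against 3 allows). The ratio of spike-in A to spike-in B, RNAs added to every reaction, averaged 2.69 ± 0.15 in siCARLo-3 and 2.01 ± 0.155 in siCTRL, a log2 difference of 0.43, with no overlap of the groups. In the series-wide table the positive controls sum to 12210 or 12211 in each siCARLo-3 library and to 8964 to 8967 in each siCTRL library, so a processing set and the siRNA cannot be told apart. Among the other HCT116 libraries in the shared fit, library 3 of siCARLo-1 v3 stood apart from its replicates, and leaving it out of the spread raised the calls given next to 107. The labels do not say that the libraries came from separate cultures, so p-values measure a spread that may be technical. Panel counts are from bulk RNA, in which fewer cells of a cycle phase and less RNA per cell cannot be told apart.

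The edgeR quasi-likelihood test called 93 of 178 tested genes (52.2%) at an adjusted p under 0.05, of which 45 rose (25.3%) and 48 fell (27.0%). Changes of at least 1.5-fold accounted for 55 calls (30.9%), 27 higher (15.2%) and 28 lower (15.7%), and the 3 and 3 libraries did not overlap for 111 genes (62.4%). Values below are TMM-normalized counts, scaled to a common library size of 124424, and log2 fold changes ± SE, positive where siCARLo-3 was higher. With so much of the panel moving, a count within a gene group has to be read against that 52.2%, with 25.3% higher and 27.0% lower. List counts with positive control scaling have to be read against 17 rises and 82 falls among all 178 tested genes. CDKN1A, JUN, GADD45A, NACA, CCND3 and CCND1 were among the genes with adequate counts that rose most, and E2F1, CDC23, ATF6B, CDC45, SKP2, CDC7, NEK1 and E2F4 fell most.

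**Figure D1:**
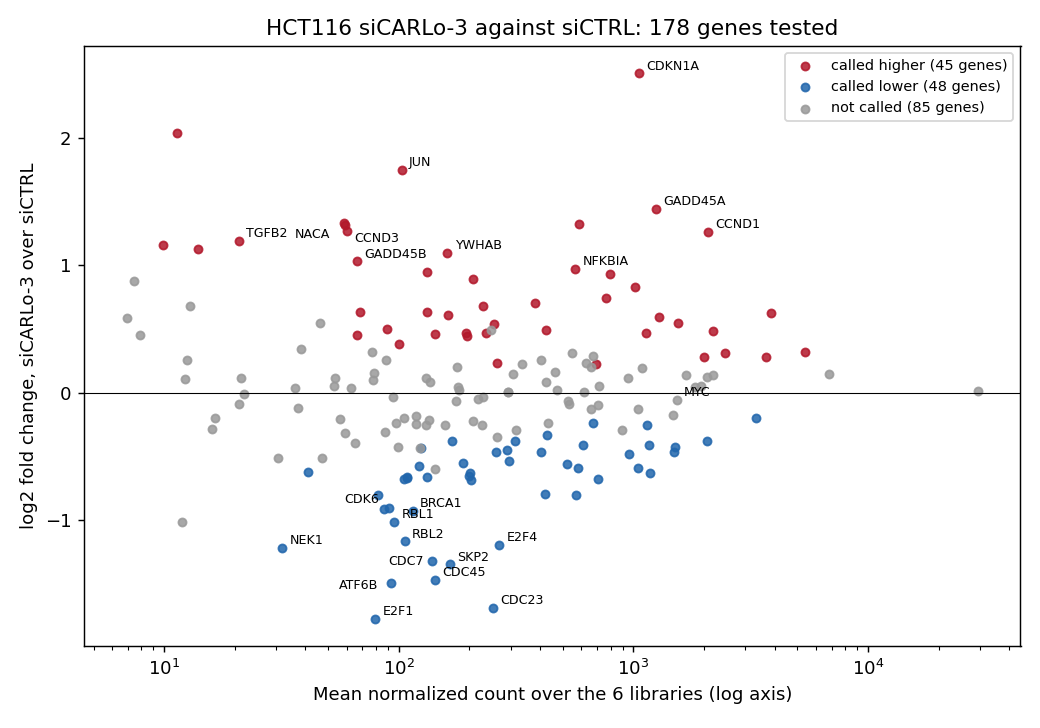
Each point is 1 of 178 tested genes, with its mean normalized count over the 6 libraries on a log axis and its log2 fold change of siCARLo-3 over siCTRL. Red points were called higher (45), blue points lower (48) and grey points were not called (85). CDKN1A stands highest at 2.51 and E2F1 lowest at -1.78, and the unlabelled red point at the upper left is CDC14C, whose 3 siCTRL libraries were all below background.

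The split between rises and falls depended on the scaling. Of the called genes 48.4% rose with TMM, which sets the bulk of the panel to no change. With positive control scaling 17 of 178 tested genes rose and 82 fell (17.2% of the called genes rising), and the median of all genes lay at -0.39. Scaling by 6 housekeeping genes gave 27 rises and 59 falls (31.4%, median -0.15), total counts 34 and 58 (37.0%, median -0.09), DESeq2 size factors 53 and 49 (52.0%, median 0.04) and the values of the series-wide table gave 24 and 57 (29.6%, median -0.17). The DESeq2 and series-wide counts come from another test as well as another scaling. Of the 45 rises 17 kept their call under all 5 other scalings, and of the 48 falls 46 did. The 17 include CDC14C, which lay near background and from whose call nothing is read. The sign turned under some alternative for 7 rises and for 0 falls. Among genes with non-overlapping libraries and a mean of at least 20 normalized counts in 1 group, the 12 largest called rises and 12 largest called falls kept their call under every alternative in which they were tested, and 18 of these 24 genes were tested under all 17. The 24 were picked for large changes in the same libraries, so their kept calls do not speak for the other calls.

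**Figure D2:**
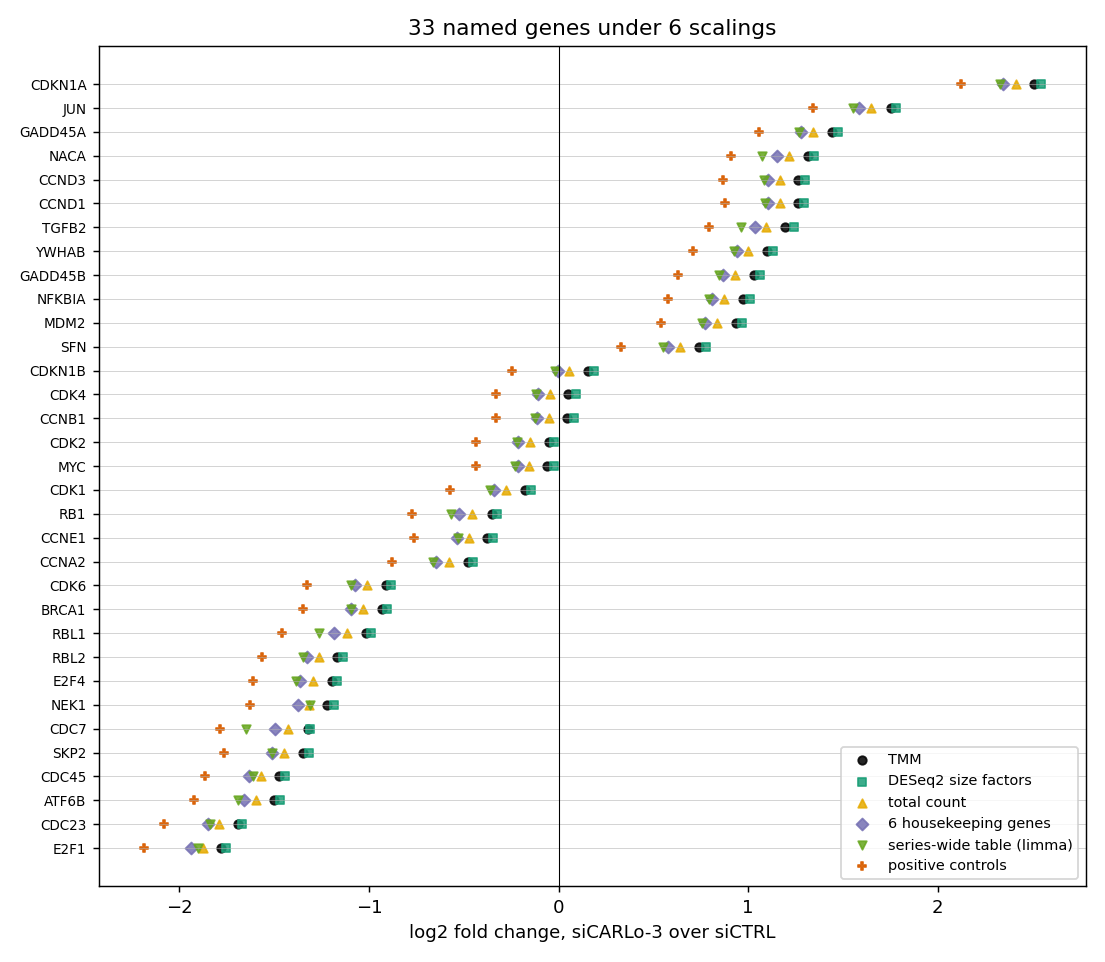
Log2 fold changes of siCARLo-3 over siCTRL for 33 named genes, 1 row per gene, under TMM and 5 other scalings. Positive control scaling (orange crosses) lies lowest in each row, and from CDKN1A at the top to SFN and from CCNE1 to E2F1 at the bottom no symbol crosses 0.

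Among stress response and growth arrest genes 5 of 6 tested members rose, 0 fell and CCNG2 was not called, with a list median of 0.98 against 0.00 over all tested genes, and with positive control scaling 4 rose and 1 fell. CDKN1A had 1854, 1790.3 and 1755 normalized counts in the siCARLo-3 libraries, against 300.2, 313 and 338 in the siCTRL libraries. The groups lay 5.69-fold apart without overlap (log2 fold change 2.51 ± 0.08, adjusted p = 5.5e-15), and this was the largest rise among genes with adequate counts. GADD45A, a stress-induced gene that restrains growth, had 1922, 1881 and 1673 in siCARLo-3, against 713, 660.2 and 643 in siCTRL (log2 fold change 1.44 ± 0.08, adjusted p = 4.5e-11). Its relative GADD45B counted 96.0, 99.3 and 72.8 in siCARLo-3 and 50.0, 44.6 and 36.5 in siCTRL (log2 fold change 1.03 ± 0.19, adjusted p = 2.2e-04). The members of this family rose by different amounts, and the third one, GADD45G, lay at background in too many libraries to be tested. MDM2, a ubiquitin ligase gene and proto-oncogene, had 1081, 1101 and 936 in siCARLo-3, against 535, 552 and 548 in siCTRL (log2 fold change 0.93 ± 0.10, adjusted p = 2.7e-07). The 14-3-3 sigma gene SFN had 887, 1099.5 and 888 in siCARLo-3, against 569.9, 551 and 609 in siCTRL (log2 fold change 0.74 ± 0.08, adjusted p = 9.7e-07). That rise was the smallest of the 5, and positive control scaling ended its call (0.33, adjusted p = 0.063, range 1.7e-16 to 0.063 over its alternatives). CCNG2, the cyclin G2 gene, had 134, 99.3 and 102 in siCARLo-3 and 138, 119.7 and 119 in siCTRL, and these overlapped (-0.18 ± 0.19, adjusted p = 0.44).

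Of the 7 CDK inhibitor genes, CDKN1A was the member that rose, 0 fell and 6 were not called. CDKN1B, which encodes p27, had 79.3, 82.0 and 86.5 in siCARLo-3, against 78.5, 68.4 and 75.8 in siCTRL. The siCARLo-3 libraries were higher throughout, but the gap was near the spread of the replicates (log2 fold change 0.15 ± 0.16, adjusted p = 0.43). CDKN2D (INK4D, an inhibitor of CDK4 and CDK6) had a log2 fold change of -0.40 ± 0.18, adjusted p = 0.064, and CDKN1C (p57) one of -0.24 ± 0.25, adjusted p = 0.43. The INK4 genes CDKN2B (0.11) and CDKN2C (0.45) were not called either, and CDKN2C had under 12 normalized counts in every library. CDKN2A (0.34) was not called, and its probe is not read here as specific to the INK4 transcript of that gene. With positive control scaling 1 member of this list rose and 2 fell.

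**Figure D3:**
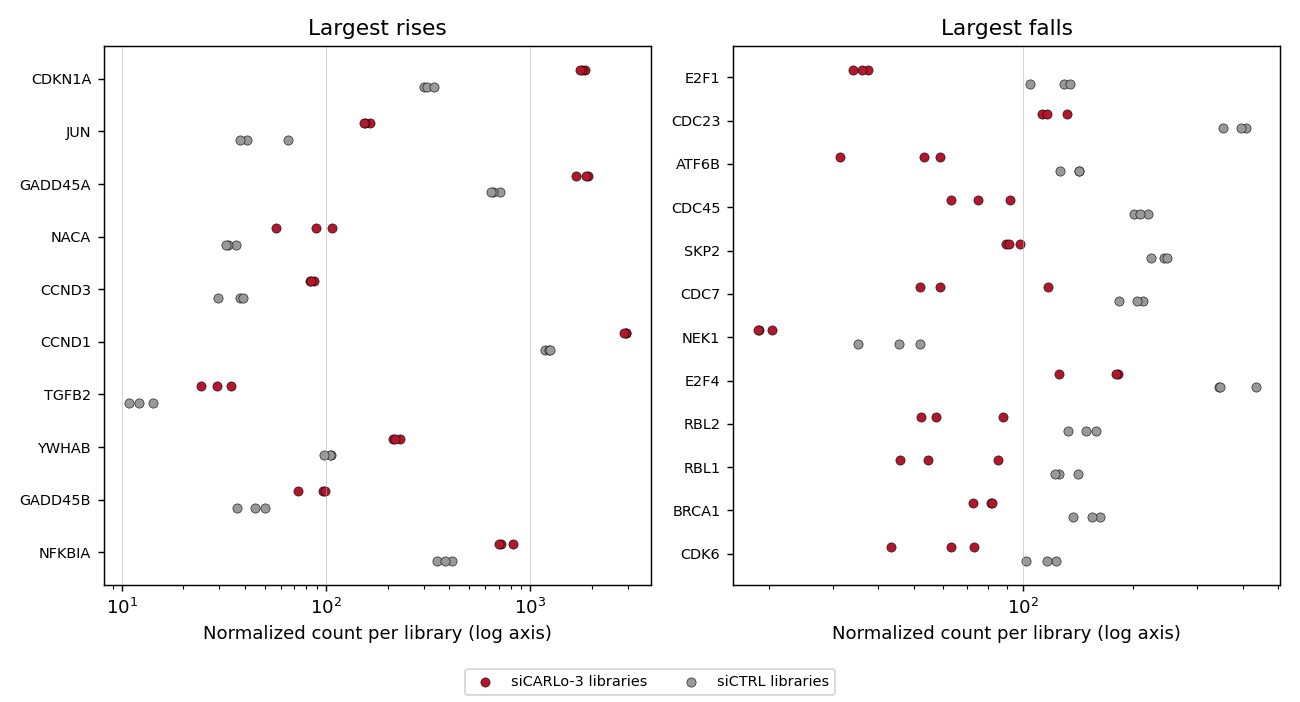
Normalized counts (log axis) of 10 of the genes with the largest called rises and of the 12 with the largest called falls, 1 row per gene, among genes with non-overlapping libraries and a mean of at least 20 normalized counts in 1 group. Red points are the 3 siCARLo-3 libraries and grey points the 3 siCTRL libraries. The points of a group lie close for CDKN1A, CCND1, YWHAB and SKP2 and spread for NACA, CDC7 and RBL1.

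The G1 cyclins and their kinases went both ways, with 2 rises, 3 falls and 5 genes not called of 10 tested (list median -0.09), and 2 rises and 5 falls with positive control scaling. The cyclin D1 gene CCND1 had 2954, 2953 and 2884 in siCARLo-3, against 1180.0, 1233 and 1252 in siCTRL (log2 fold change 1.26 ± 0.06, adjusted p = 1.6e-12). CCND3, which encodes cyclin D3, had 87.7, 83.5 and 84.2 in siCARLo-3, against 29.4, 38.0 and 39.3 in siCTRL (log2 fold change 1.27 ± 0.19, adjusted p = 3.1e-05). Both D-type cyclins that could be tested were higher in every siCARLo-3 library by a like factor, and CCND2 was at background. Their kinases did not follow them. CDK6 had 73.1, 63.3 and 43.3 in siCARLo-3, against 123, 116 and 102 in siCTRL, and fell (log2 fold change -0.91 ± 0.25, adjusted p = 0.0053). CDK4 had 735, 622 and 831 in siCARLo-3 and 632, 635 and 845 in siCTRL, with overlapping libraries (0.05 ± 0.19, adjusted p = 0.86). At the next step, the cyclin E1 gene CCNE1 had 150.3, 134 and 157 in siCARLo-3, against 185, 190.0 and 194 in siCTRL (log2 fold change -0.38 ± 0.14, adjusted p = 0.034). Those groups did not overlap, yet the call was lost without siCARLo-3 library 1 or 2 or siCTRL library 1 or 3 (adjusted p 0.059, 0.15, 0.055 and 0.071, range 0.0032 to 0.15 over its alternatives). CCNE2 (-0.44 ± 0.20, adjusted p = 0.074) and CDK2 (-0.05 ± 0.11, adjusted p = 0.72) were not called. Of the CDK-activating kinase, MNAT1 fell (-0.38 ± 0.12, adjusted p = 0.013) while CCNH (0.16) and CDK7 (-0.13) were not called, and the call of MNAT1 was lost without siCARLo-3 library 3 (-0.28, adjusted p = 0.072, range 2.9e-04 to 0.072 over its alternatives).

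The E2F, DP and pocket protein genes had 2 rises, 5 falls and 4 genes not called of 11 (list median -0.51), and 0 rises and 7 falls with positive control scaling. E2F1, the best known activator of replication genes, had 37.6, 36.0 and 34.1 normalized counts in the siCARLo-3 libraries, against 129, 134 and 104 in the siCTRL libraries. It was the largest fall of the panel, 3.43-fold lower in siCARLo-3, and the groups were far apart relative to their spread (log2 fold change -1.78 ± 0.21, adjusted p = 1.3e-06). E2F4, whose product works with pocket proteins as a repressor, had 182, 179.9 and 125 in siCARLo-3, against 344, 433 and 347 in siCTRL (log2 fold change -1.19 ± 0.12, adjusted p = 1.6e-07). The dimer partner gene TFDP1 fell less (-0.68 ± 0.12, adjusted p = 1.1e-04). Of the pocket proteins, RBL2 (p130) had 87.7, 57.6 and 52.4 in siCARLo-3, against 158, 148 and 133 in siCTRL (log2 fold change -1.17 ± 0.20, adjusted p = 7.9e-05). RBL1 (p107) had 45.9, 84.9 and 54.6 in siCARLo-3, against 141, 125 and 122 in siCTRL (log2 fold change -1.01 ± 0.21, adjusted p = 6.2e-04). For both, the siCARLo-3 libraries differed among themselves more than the siCTRL libraries did, with library 1 highest for RBL2 and library 2 highest for RBL1. RB1 had 278, 246 and 164 in siCARLo-3 and 301, 278 and 307 in siCTRL (log2 fold change -0.35 ± 0.15, adjusted p = 0.052). It was not called with TMM, but was called lower in 9 of 17 alternatives, among them all 5 other scalings (range 9.1e-04 to 0.26 over its alternatives). The rises were those of E2F3 (0.61 ± 0.14, adjusted p = 0.0014) and TFDP2 (0.54 ± 0.11, adjusted p = 5.0e-04), and positive control scaling ended both calls (E2F3 0.20, adjusted p = 0.38, and TFDP2 0.13, adjusted p = 0.55), as the series-wide table did for TFDP2 (0.36, adjusted p = 0.072). E2F5 (0.20), E2F6 (0.04) and E2F2 (-0.51) were not called, so members of the family differed in direction under TMM.

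E2F factors bind a short word in the promoters of their targets, and E2F1 and several replication genes carry it, so promoters of called genes were searched for it. The words TTTGGCGC, TTTCCCGC, TTTCGCGC and TTTGCCGC were looked for on both strands from 250 bases before to 50 bases after each gene's start, in RefSeq promoters of the human build GRCh38.p14. Promoters were found for 154 of the 178 tested genes, and the first listed one was used for each. Of all 35116 promoters, which were not reduced to 1 per gene, 3.31% held at least 1 word. Of the matched panel genes 15.6% did, of genes called higher 13.9% (5 of 36), of genes called lower 22.7% (10 of 44) and of genes not called 12.2% (9 of 74). These shares describe letters, not binding. The called genes with at least 2 matches are printed 5′ to 3′ on the strand of the gene, with the matched words in capitals. They show words of this set, not always the same one, beside falls and beside the rise of MCM2. MCM3 also had 2 matches and was not called, so its window is not printed. The E2F1 window lies at chr20:33686336-33686635 (minus strand, 2 matches, log2 fold change -1.78), RBL1 at chr20:37095948-37096247 (minus strand, 2 matches, -1.01), MCM6 at chr2:135876394-135876693 (minus strand, 4 matches that overlap in pairs, -0.59) and MCM7 at chr7:100101348-100101647 (minus strand, 2 matches, -0.46). MCM2, the gene of these that rose with TMM, lies at chr3:127598161-127598460 (plus strand, 2 overlapping matches, 0.44). Its call was kept in 1 of 5 other scalings.
E2F1: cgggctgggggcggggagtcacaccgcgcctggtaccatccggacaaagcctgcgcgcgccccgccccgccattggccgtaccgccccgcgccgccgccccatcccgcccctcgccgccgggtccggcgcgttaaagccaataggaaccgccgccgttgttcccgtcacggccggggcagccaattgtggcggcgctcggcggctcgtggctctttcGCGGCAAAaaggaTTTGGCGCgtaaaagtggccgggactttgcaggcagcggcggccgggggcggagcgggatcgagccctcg
RBL1: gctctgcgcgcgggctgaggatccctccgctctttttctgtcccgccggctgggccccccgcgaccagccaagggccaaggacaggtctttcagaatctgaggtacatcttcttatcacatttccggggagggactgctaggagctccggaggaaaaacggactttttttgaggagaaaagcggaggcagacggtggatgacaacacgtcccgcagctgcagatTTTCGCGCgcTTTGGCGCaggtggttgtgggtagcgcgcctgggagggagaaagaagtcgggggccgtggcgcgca
MCM6: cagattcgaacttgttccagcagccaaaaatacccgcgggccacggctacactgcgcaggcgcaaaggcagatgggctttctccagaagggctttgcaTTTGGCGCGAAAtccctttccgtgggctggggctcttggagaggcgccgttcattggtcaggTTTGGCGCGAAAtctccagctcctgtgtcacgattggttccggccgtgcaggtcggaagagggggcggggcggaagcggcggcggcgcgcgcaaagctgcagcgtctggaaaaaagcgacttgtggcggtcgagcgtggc
MCM7: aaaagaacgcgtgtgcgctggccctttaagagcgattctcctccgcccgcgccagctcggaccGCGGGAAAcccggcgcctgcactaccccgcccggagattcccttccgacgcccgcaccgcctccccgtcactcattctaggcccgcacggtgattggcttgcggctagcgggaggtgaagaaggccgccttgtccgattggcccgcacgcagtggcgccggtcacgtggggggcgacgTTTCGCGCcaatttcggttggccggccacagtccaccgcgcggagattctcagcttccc
MCM2: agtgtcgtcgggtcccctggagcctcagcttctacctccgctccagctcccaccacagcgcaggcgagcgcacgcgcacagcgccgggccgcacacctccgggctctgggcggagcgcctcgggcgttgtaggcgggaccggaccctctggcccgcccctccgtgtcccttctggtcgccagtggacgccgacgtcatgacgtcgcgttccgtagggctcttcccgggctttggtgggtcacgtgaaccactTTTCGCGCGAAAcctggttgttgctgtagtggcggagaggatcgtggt

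The MCM genes encode the 6 subunits of the replicative helicase, a ring that needs each of them. Of these 1 rose, 3 fell and 2 were not called (list median -0.36), and with positive control scaling 0 rose and 5 fell. MCM4 had 854, 1000.2 and 922 in siCARLo-3, against 1392, 1532 and 1387 in siCTRL (log2 fold change -0.63 ± 0.11, adjusted p = 1.0e-04). MCM6, whose promoter holds 4 words, had 447, 488 and 455 in siCARLo-3, against 696, 700.1 and 701 in siCTRL (log2 fold change -0.59 ± 0.09, adjusted p = 4.8e-05). MCM7 had 1148, 1336 and 1284 in siCARLo-3, against 1711, 1789 and 1704 in siCTRL (log2 fold change -0.46 ± 0.10, adjusted p = 0.0011). These falls were under 2-fold with no overlap of libraries. MCM2, with the overlapping pair of words, had 213, 225 and 239 in siCARLo-3, against 159.9, 175 and 161 in siCTRL (log2 fold change 0.44 ± 0.14, adjusted p = 0.011). Its rise held with TMM and DESeq2 but was lost with positive controls (0.06, adjusted p = 0.78), housekeeping genes (0.29, 0.22), total counts (0.35, 0.088) and the series-wide table (0.27, 0.24). MCM3 (-0.24 ± 0.12, adjusted p = 0.098) and MCM5 (-0.25 ± 0.14, adjusted p = 0.14) were not called.

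Genes that load and fire replication origins had 1 rise, 5 falls and 7 genes not called of 13 (list median -0.23), and 0 rises and 8 falls with positive control scaling. Over all 178 tested genes that scaling gave 17 rises and 82 falls. The largest falls belonged to the firing step. CDC45, a partner of the MCM ring in the active helicase, had 91.8, 63.3 and 75.1 in siCARLo-3, against 201, 219 and 208 in siCTRL (log2 fold change -1.47 ± 0.17, adjusted p = 1.3e-06). CDC7, the kinase that fires origins, had 52.2, 117 and 59.2 in siCARLo-3, against 213, 204 and 183 in siCTRL (log2 fold change -1.32 ± 0.21, adjusted p = 4.4e-05). Library 2 of siCARLo-3 held about as many CDC7 counts as the other siCARLo-3 libraries together, and still lay below every siCTRL library. DBF4, the activating subunit of the CDC7 kinase, was not called (0.22 ± 0.16, adjusted p = 0.26). Of the origin recognition complex ORC1 (-0.69 ± 0.14, adjusted p = 5.1e-04) and ORC2 (-0.34 ± 0.07, adjusted p = 9.8e-04) fell, ORC4 (0.26), ORC5 (-0.04) and ORC6 (-0.30) were not called, and ORC3 rose (0.49 ± 0.15, adjusted p = 0.0094). The rise of ORC3 was lost without siCARLo-3 library 1 (0.39, adjusted p = 0.057) and under 3 scalings, among them positive controls (0.11, adjusted p = 0.64, range 0.0010 to 0.64 over its alternatives). The polymerase epsilon gene POLE fell (-0.67 ± 0.19, adjusted p = 0.0069), and PCNA (0.49 ± 0.22, adjusted p = 0.066), CDC6 (0.23 ± 0.12, adjusted p = 0.099) and POLE2 (-0.23) were not called.

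Other replication genes on the panel moved in both directions. RPA2, a subunit of the single-strand binding protein RPA, had 443, 425 and 551 in siCARLo-3, against 272, 287 and 310.0 in siCTRL (log2 fold change 0.70 ± 0.15, adjusted p = 6.2e-04), while RPA1 was not called (-0.10). Positive control scaling (0.34, adjusted p = 0.20) and the series-wide table (0.52, adjusted p = 0.064) ended the call of RPA2 (range 6.1e-06 to 0.20 over its alternatives). The primase genes PRIM1 (-0.47 ± 0.11, adjusted p = 0.0013) and PRIM2 (-0.47 ± 0.11, adjusted p = 0.0015) and their polymerase partner POLA2 (-0.56 ± 0.13, adjusted p = 0.0011) all fell.

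Mitotic cyclins and regulators of mitotic entry had 0 rises, 3 falls and 7 genes not called of 10 (list median -0.09), and 0 rises and 5 falls with positive control scaling. CCNB1, the cyclin B1 gene, had 1874, 1867 and 1851 in siCARLo-3, against 1858, 1851 and 1704 in siCTRL. The groups were close to level (log2 fold change 0.05 ± 0.12, adjusted p = 0.78), and CCNB2 (0.20 ± 0.10, adjusted p = 0.11) and the mitotic kinase gene PLK1 (0.00 ± 0.14, adjusted p = 0.99) were not called. CDK1 had 1453, 1569 and 1125 in siCARLo-3 and 1607, 1674 and 1409 in siCTRL (log2 fold change -0.17 ± 0.13, adjusted p = 0.27), and was called lower with positive control scaling (-0.57, adjusted p = 0.0062, range 0.0062 to 0.77 over its alternatives). Cyclin A2 acts in S phase and G2. CCNA2 had 854, 845 and 703 in siCARLo-3, against 1103, 1128 and 1127 in siCTRL, without overlap (log2 fold change -0.48 ± 0.14, adjusted p = 0.0093). CDC25B, a phosphatase that activates CDK1, had 250.5, 237 and 237 in siCARLo-3, against 340.4, 355 and 357 in siCTRL (log2 fold change -0.54 ± 0.08, adjusted p = 3.0e-05). CDC25A (-0.31) and CDC25C (0.05) were not called. PKMYT1, a kinase that inhibits CDK1, also fell (-0.63 ± 0.21, adjusted p = 0.016), a call lost without siCARLo-3 library 3 (-0.54, adjusted p = 0.061, range 9.3e-04 to 0.061 over its alternatives).

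At the spindle assembly checkpoint, which delays chromosome separation, 2 genes rose, 1 fell and 3 were not called of 6 (list median 0.11), and with positive control scaling 0 rose and 1 fell. BUB1B, the BUBR1 kinase gene, had 353, 284 and 287 in siCARLo-3, against 543, 556 and 495 in siCTRL (log2 fold change -0.80 ± 0.13, adjusted p = 7.0e-05). BUB1 (0.02 ± 0.09, adjusted p = 0.86), BUB3 (0.14) and MAD2L2 (0.08) were not called. MAD2L1 had 1766, 1266 and 1625 in siCARLo-3 and 931, 952 and 1202 in siCTRL (log2 fold change 0.59 ± 0.18, adjusted p = 0.011), and its call was lost under 4 scalings and without siCARLo-3 library 1 (adjusted p = 0.056) or siCTRL library 2 (adjusted p = 0.051, range 8.0e-04 to 0.43 over its alternatives). The call of MAD1L1 (0.38 ± 0.16, adjusted p = 0.047) was lost under 4 scalings, one of which gave -0.01, and without any 1 of 5 libraries (range 0.036 to 0.97 over its alternatives), the exception being siCARLo-3 library 3. Separase, which cuts the cohesin ring, is encoded by ESPL1, and ESPL1 had 68.9, 67.6 and 38.7 in siCARLo-3, against 105, 103 and 107 in siCTRL (log2 fold change -0.81 ± 0.17, adjusted p = 6.6e-04). The cohesin subunit gene SMC1A fell too (-0.45 ± 0.08, adjusted p = 1.5e-04). The securin probe PTTG1 fell slightly (-0.26 ± 0.09, adjusted p = 0.027), a call lost without siCARLo-3 library 1 or 3 or siCTRL library 1 or 2 (range 7.4e-04 to 0.12 over its alternatives). PTTG2 was not called (-0.09), and because the transcripts are nearly identical, which of them each probe counts is uncertain. Separase, securin and cohesin genes together had 0 rises, 3 falls and 1 gene not called of 4 (list median -0.35), and 4 falls with positive control scaling.

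The APC/C is the ubiquitin ligase that ends mitosis, and of its 12 subunit and activator genes 2 rose, 3 fell and 7 were not called (list median -0.16), against 0 rises and 7 falls with positive control scaling. CDC23 stood apart within this complex. It had 132, 112 and 116 in siCARLo-3, against 408, 394 and 353 in siCTRL, a level 3.23-fold lower in siCARLo-3 (log2 fold change -1.69 ± 0.11, adjusted p = 2.6e-10). CDC16, whose product is built alike and sits beside CDC23 in the complex, had 411, 456 and 387 in siCARLo-3, against 625, 620.3 and 612 in siCTRL (log2 fold change -0.56 ± 0.08, adjusted p = 1.9e-05). The third such subunit gene, CDC27, was not called (-0.29 ± 0.14, adjusted p = 0.079), nor were the activators CDC20 (0.20 ± 0.19, adjusted p = 0.40) and FZR1 (-0.20 ± 0.12, adjusted p = 0.20). The remaining calls were fragile. ANAPC5 (-0.41) lost its call without siCARLo-3 library 1 or 2 or siCTRL library 3 (adjusted p 0.10, 0.15 and 0.17, range 0.0045 to 0.17 over its alternatives) and in the series-wide table. ANAPC2 (0.45) lost its call under 4 of 5 other scalings and without siCARLo-3 library 2 or 3 or siCTRL library 2 (range 0.0091 to 0.81 over its alternatives). ANAPC10 (0.23) lost its call under 4 scalings and without any 1 of the libraries other than siCARLo-3 library 2 (range 0.029 to 0.78 over its alternatives), and its sign turned with positive control scaling (-0.15).

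Of the SCF ligase genes 2 rose, 2 fell and 2 were not called of 6 (list median 0.25), against 0 rises and 2 falls with positive control scaling. SKP2, the F-box protein that sends p27 to destruction, had 89.8, 97.9 and 91.1 in siCARLo-3, against 224, 243 and 248 in siCTRL. The 6 libraries formed tight groups 2.54-fold apart, lower in siCARLo-3 (log2 fold change -1.35 ± 0.11, adjusted p = 1.9e-08). FBXW7, the F-box protein that targets cyclin E and MYC, had 167, 197 and 112 in siCARLo-3 and 103, 104 and 108 in siCTRL (log2 fold change 0.63 ± 0.16, adjusted p = 0.0031). Its call was lost without siCARLo-3 library 2 (0.42, adjusted p = 0.052) and under 3 scalings, among them positive controls (0.19, adjusted p = 0.42, range 1.6e-04 to 0.42 over its alternatives). The ring subunit gene RBX1 rose (0.47 ± 0.06, adjusted p = 4.8e-06), which positive control scaling (0.10, adjusted p = 0.57) and the series-wide table (0.30, adjusted p = 0.068) did not call. The scaffold gene CUL1 (-0.24 ± 0.09, adjusted p = 0.043) lost its call with DESeq2, in the series-wide table and without any 1 of the libraries other than siCTRL library 2 (range 0.0064 to 0.18 over its alternatives). NEDD8, the small modifier that activates cullins, rose with TMM (0.31 ± 0.05, adjusted p = 7.9e-05), lost its call under 3 scalings and lay at -0.06 with positive control scaling. Of the 3 mitotic exit phosphatases CDC14A (-0.21) and CDC14B (0.12) were not called, the list median was 0.12, and 1 gene, CDC14C, was called higher. CDC14C had raw counts of 10, 12 and 7 in the siCARLo-3 libraries, and of 3, 3 and 6 in the siCTRL libraries. It passed the background filter through libraries in which it was high, and background itself was lower in siCARLo-3 (4.64 to 6.38 counts) than in siCTRL (8.94 to 11.3), so nothing is read from its call.

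DNA damage kinases and repair genes had 0 rises, 2 falls and 5 genes not called of 7 reported here (list median -0.26), against 0 rises and 6 falls with positive control scaling. BRCA1, a break repair gene, had 81.4, 82.0 and 72.8 in siCARLo-3, against 136, 162 and 154 in siCTRL (log2 fold change -0.93 ± 0.21, adjusted p = 0.0010). PRKDC, the catalytic subunit of DNA-dependent protein kinase, had 1042, 1064 and 883 in siCARLo-3, against 1449, 1297 and 1245 in siCTRL (log2 fold change -0.41 ± 0.10, adjusted p = 0.0015). Both fell without overlap, BRCA1 by more. The checkpoint kinase genes CHEK1 (0.29 ± 0.22, adjusted p = 0.28), CHEK2 (-0.21 ± 0.11, adjusted p = 0.13) and ATR (-0.26 ± 0.25, adjusted p = 0.40) were not called, and ATM was at background. RAD50 (-0.43 ± 0.20, adjusted p = 0.078) and MRE11A (-0.25 ± 0.19, adjusted p = 0.28) of the break-sensing complex had values below 0 that did not pass the test.

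All 7 genes of the 14-3-3 family, phosphoserine-binding proteins that hold partners such as CDC25 in the cytoplasm, were called, 5 higher and 2 lower (list median 0.32). With positive control scaling 1 rose and 2 fell. YWHAB had 213, 230.3 and 216 in siCARLo-3, against 106, 104 and 97.5 in siCTRL (log2 fold change 1.10 ± 0.11, adjusted p = 2.7e-07). YWHAE, far more abundant in counts, had 4642, 4581 and 4762 in siCARLo-3, against 3008, 2991 and 3072 in siCTRL (log2 fold change 0.62 ± 0.06, adjusted p = 6.1e-08). YWHAH had 424, 407 and 412 in siCARLo-3, against 670.0, 723 and 781 in siCTRL (log2 fold change -0.81 ± 0.09, adjusted p = 3.3e-07). The groups did not overlap for any of these, so family members moved oppositely in the same libraries. YWHAG also fell (-0.43 ± 0.08, adjusted p = 2.8e-04). YWHAZ (0.32 ± 0.07, adjusted p = 0.0015) and YWHAQ (0.28 ± 0.05, adjusted p = 2.5e-04) rose with TMM, but lost their calls under 3 scalings, and with positive controls lay at -0.06 and -0.11, still above the -0.39 of the median gene. The call of YWHAE was lost there too (0.25, adjusted p = 0.16, range 2.6e-29 to 0.16 over its alternatives), whereas the calls of YWHAB, YWHAG and YWHAH held.

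**Figure D4:**
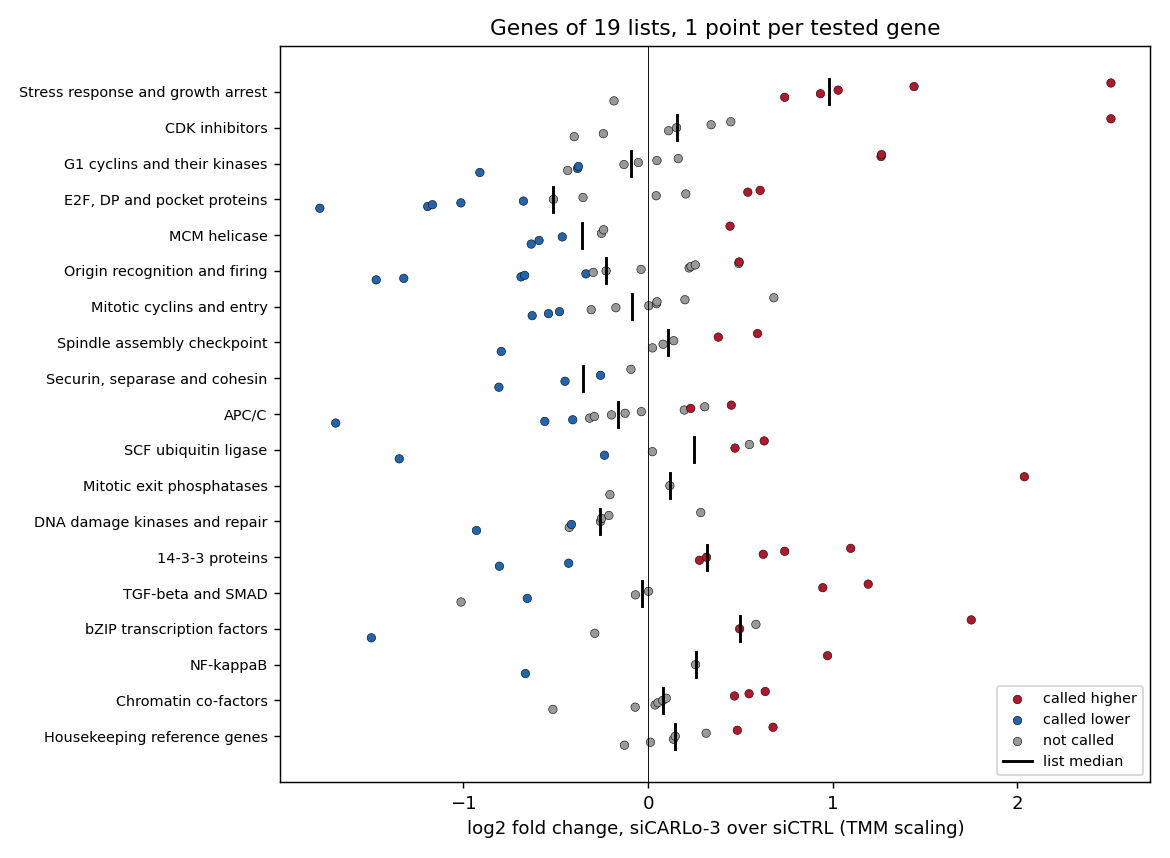
Log2 fold changes (siCARLo-3 over siCTRL, TMM scaling) of the tested genes of 19 lists, 1 point per gene, coloured by call, with a black bar at each list's median. The stress response and growth arrest list has the highest median (0.98) and the E2F, DP and pocket protein list the lowest (-0.51), and most lists hold points on both sides of 0. SFN, CDKN1A and no other gene appear in 2 lists.

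The signalling genes of the panel held further large changes. JUN, a subunit of the AP-1 transcription factor, had 165, 155 and 153 in siCARLo-3, against 41.2, 38.0 and 65.0 in siCTRL. Library 3 of siCTRL stood above the other siCTRL libraries, and the groups remained far apart (log2 fold change 1.75 ± 0.23, adjusted p = 6.0e-06). MAPK8, the kinase that phosphorylates JUN, was not called (0.00 ± 0.08, adjusted p = 0.99). NFKBIA, the inhibitor of NF-kappaB and itself a target of it, had 720.1, 819 and 701 in siCARLo-3, against 415, 349 and 382 in siCTRL (log2 fold change 0.97 ± 0.10, adjusted p = 2.0e-07). The subunit gene NFKB1 fell (-0.66 ± 0.14, adjusted p = 6.5e-04), and RELA was not called (0.26 ± 0.16, adjusted p = 0.19), which gave this list of 3 a median of 0.26 and left 1 rise and 1 fall with positive control scaling too. Of the TGF-beta ligands TGFB1 had 196, 141 and 187 in siCARLo-3, against 97.1, 83.6 and 86.6 in siCTRL (log2 fold change 0.95 ± 0.21, adjusted p = 8.4e-04). TGFB2 had 29.2, 24.5 and 34.1 in siCARLo-3, against 10.8, 14.2 and 12.2 in siCTRL (log2 fold change 1.19 ± 0.28, adjusted p = 0.0016), with 1 of 3 siCTRL libraries above background. TGFB3 was not called (-1.01 ± 0.43, adjusted p = 0.056), so the list of ligands and SMADs held 2 rises, 1 fall and 3 genes not called of 6 (list median -0.03), and 2 rises and 3 falls with positive control scaling. The fall was that of the signal transducer SMAD2 (-0.65 ± 0.21, adjusted p = 0.012), lost without siCARLo-3 library 3 (-0.46, adjusted p = 0.071, range 7.0e-05 to 0.071 over its alternatives), and SMAD3 (-0.07) and SMAD4 (0.00) were not called.

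Membrane-bound bZIP factors are cut from the endoplasmic reticulum or Golgi membrane to enter the nucleus. ATF6B had 31.3, 53.2 and 59.2 in siCARLo-3, against 142, 126 and 142 in siCTRL (log2 fold change -1.50 ± 0.19, adjusted p = 3.3e-06). It was the third largest fall, and library 1 of siCARLo-3 was the lowest. CREB3 rose (0.50 ± 0.16, adjusted p = 0.014), which was lost under 4 scalings and without siCARLo-3 library 1 (0.35, adjusted p = 0.10) or siCTRL library 2 (0.42, adjusted p = 0.065, range 0.0023 to 0.64 over its alternatives). CREB3L3 (0.58) and CREB3L4 (-0.29) were near background and not called. With JUN, the bZIP list had 2 rises, 1 fall and 2 genes not called of 5 (list median 0.50), and 1 rise and 1 fall with positive control scaling.

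Among 9 chromatin co-factors 3 rose, 0 fell and 6 were not called (list median 0.08), against 0 rises and 2 falls with positive control scaling. HDAC1 had 1841, 1877 and 1814 in siCARLo-3, against 1269, 1254 and 1263 in siCTRL (log2 fold change 0.55 ± 0.05, adjusted p = 1.8e-07), and positive control scaling ended the call (0.17, adjusted p = 0.35, range 1.1e-16 to 0.35 over its alternatives). Its close paralog HDAC2 was not called (0.05 ± 0.08, adjusted p = 0.60). The acetyltransferase genes CREBBP (0.64 ± 0.18, adjusted p = 0.0058) and EP300 (0.47 ± 0.16, adjusted p = 0.022) rose with TMM. CREBBP lost its call without siCTRL library 2 (0.47, adjusted p = 0.050) and with positive control scaling (0.24, adjusted p = 0.37), and EP300 under 3 scalings and without siCARLo-3 library 2 or 3 or siCTRL library 2 or 3 (range 0.0093 to 0.71 over its alternatives). Of 7 housekeeping genes POLR1B (0.68 ± 0.12, adjusted p = 1.4e-04) and TUBB (0.48 ± 0.08, adjusted p = 7.0e-05) rose, 0 fell and 5 were not called (list median 0.15), against 0 rises and 2 falls with positive control scaling. The 6 other than POLR1B, TUBB among them, are the yardstick of the housekeeping gene scaling. GAPDH had 30447, 29718 and 28411 in siCARLo-3 and 29227, 30416 and 28123 in siCTRL (0.01 ± 0.17, adjusted p = 0.96).

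The 41 tested genes in none of these lists held 12 rises, 13 falls and 16 genes not called. NACA, a chaperone of nascent proteins, had 106, 89.2 and 56.9 in siCARLo-3, against 36.3, 33.2 and 32.5 in siCTRL (log2 fold change 1.32 ± 0.19, adjusted p = 1.4e-05). The probe NACAP1, whose accession RefSeq assigns to NACA4P and whose sequence is nearly identical to NACA, had far higher counts and was called by a smaller amount (0.28 ± 0.10, adjusted p = 0.033). That call was lost under 4 scalings, turned sign with positive control scaling (-0.12) and was lost without siCARLo-3 library 1 or 2 or siCTRL library 2 or 3 (range 0.0033 to 0.62 over its alternatives), and which transcript each probe counts is uncertain. ARF3, a small GTPase of the Golgi, had 1267, 1192 and 1436 in siCARLo-3, against 733, 701 and 751 in siCTRL (log2 fold change 0.83 ± 0.08, adjusted p = 1.6e-07), while ARF1 was not called (0.12 ± 0.06, adjusted p = 0.082). CDH1, the E-cadherin gene, had 286, 289 and 228 in siCARLo-3, against 131, 144 and 162 in siCTRL (log2 fold change 0.89 ± 0.17, adjusted p = 2.3e-04). For ARF3 and CDH1 the groups did not overlap. NEK1, a kinase of cilia and DNA repair, had 18.8, 18.7 and 20.5 in siCARLo-3, against 52.0, 45.6 and 35.2 in siCTRL (log2 fold change -1.22 ± 0.32, adjusted p = 0.0037). GBA2, a glucosylceramidase outside the lysosome, had 60.5, 72.0 and 54.6 in siCARLo-3, against 122, 125 and 108 in siCTRL (log2 fold change -0.91 ± 0.15, adjusted p = 5.4e-05). All siCARLo-3 libraries lay below all siCTRL libraries for both genes. RPS6KA1, the kinase RSK1, fell as well (-0.63 ± 0.12, adjusted p = 2.7e-04). POLR1D, a subunit shared by RNA polymerases I and III, had 841, 813 and 847 in siCARLo-3, against 1252, 1249 and 1271 in siCTRL (log2 fold change -0.59 ± 0.06, adjusted p = 3.1e-07), while POLR1C was not called (0.15).

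MYC, the proto-oncogene that neighbours the targeted lncRNAs at 8q24, had 1417, 1559 and 1518 normalized counts in the siCARLo-3 libraries, against 1597, 1624 and 1458 in the siCTRL libraries. The groups overlapped, and the test made no call with TMM (log2 fold change -0.06 ± 0.06, adjusted p = 0.43). It was called lower with positive control scaling (-0.44, adjusted p = 0.014), where the median gene lay at -0.39, and in 0 of the other 16 alternatives.

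The siCARLo-3 libraries share a positive control sum of 12210 to 12212 in the series-wide table with those of siCARLo-1 v3 and siCARLo-4, each 3 libraries of HCT116 cells transfected likewise. The groups still differed in their raw counts. Endogenous counts per count of the positive controls were 6.67 to 8.32 in siCARLo-3, 8.93 to 9.44 in siCARLo-1 v3 and 9.11 to 10.6 in siCARLo-4. The ratio of spike-in A to B was 2.52 to 2.81, 2.15 to 2.61 and 2.15 to 2.24 in the same order. Endogenous counts were 55893 to 92559, 83850 to 136781 and 133885 to 195475. The part of these differences in the calls was not tested. Comparisons with the 2 groups reuse the 3 siCARLo-3 libraries, so their values are given side by side. Against siCARLo-1 v3, 98 genes were called (55.1%), 50 higher (28.1%) and 48 lower (27.0%). At least 1.5-fold were 50 of these calls (28.1%), 24 higher (13.5%) and 26 lower (14.6%), and libraries did not overlap for 91 genes (51.1%). Without library 3 of siCARLo-1 v3, which stood apart, 102 genes were called. Against siCARLo-4, 78 genes were called (43.8%), 40 higher (22.5%) and 38 lower (21.3%). At least 1.5-fold were 46 calls (25.8%), 22 higher (12.4%) and 24 lower (13.5%), and libraries did not overlap for 105 genes (59.0%). With positive control scaling the calls were 16 higher and 67 lower against siCARLo-1 v3, and 18 higher and 56 lower against siCARLo-4. The series-wide table gave 14 higher and 86 lower against siCARLo-1 v3, and 11 higher and 94 lower against siCARLo-4.

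GADD45A had 1922, 1881 and 1673 normalized counts in siCARLo-3, against 902, 928 and 1079 in siCARLo-1 v3 and 634, 622 and 665 in siCARLo-4. It was higher in siCARLo-3 than in either group (log2 fold change 0.91 ± 0.08, adjusted p = 4.0e-08 and 1.51 ± 0.08, adjusted p = 4.5e-11). MDM2 was likewise higher than in siCARLo-1 v3 (log2 fold change 0.47 ± 0.10, adjusted p = 4.6e-04) and siCARLo-4 (1.06 ± 0.10, adjusted p = 4.1e-08), the first a difference that positive control scaling (0.13, adjusted p = 0.58) and 2 other scalings ended. CDKN1A had 1854, 1790.3 and 1755 in siCARLo-3, against 1542, 1508 and 1829.7 in siCARLo-1 v3 and 760.2, 750.3 and 721 in siCARLo-4. Its difference from siCARLo-1 v3 was not called (log2 fold change 0.15 ± 0.07, adjusted p = 0.085), but was called without siCARLo-1 v3 library 3 (0.24, adjusted p = 0.0012), while that from siCARLo-4 was called (1.27 ± 0.07, adjusted p = 4.9e-11). GADD45B was not called against siCARLo-1 v3 (0.42 ± 0.18, adjusted p = 0.059), though 2 alternatives called it, and was higher than in siCARLo-4 (1.04 ± 0.18, adjusted p = 1.2e-04). SFN went the other way against siCARLo-1 v3, where it was lower under every alternative (-0.30 ± 0.08, adjusted p = 0.0051). Against siCARLo-4 SFN was not called (0.18 ± 0.08, adjusted p = 0.077), though 3 alternatives called it. The 14-3-3 genes YWHAB (1.17 ± 0.11, adjusted p = 2.1e-07 against siCARLo-1 v3 and 1.07 ± 0.11, adjusted p = 1.6e-07 against siCARLo-4) and YWHAE (1.02 ± 0.06, adjusted p = 9.1e-11 and 0.96 ± 0.06, adjusted p = 9.4e-11) were higher in siCARLo-3, and YWHAH (-0.62 ± 0.09, adjusted p = 1.1e-05 and -1.21 ± 0.08, adjusted p = 1.1e-09) was lower.

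E2F1 had 37.6, 36.0 and 34.1 normalized counts in siCARLo-3, against 165, 156 and 112 in siCARLo-1 v3 and 158, 186 and 169.9 in siCARLo-4. No library of either other group came near the siCARLo-3 level (log2 fold change -2.00 ± 0.21, adjusted p = 3.9e-07 against siCARLo-1 v3 and -2.25 ± 0.20, adjusted p = 3.0e-08 against siCARLo-4). ATF6B (-1.44 ± 0.19, adjusted p = 6.1e-06 and -1.77 ± 0.18, adjusted p = 1.8e-07), CDC45 (-1.02 ± 0.18, adjusted p = 1.3e-04 and -1.14 ± 0.17, adjusted p = 3.0e-05) and E2F4 (-0.99 ± 0.12, adjusted p = 1.7e-06 and -0.98 ± 0.12, adjusted p = 1.3e-06) were also lower in siCARLo-3 in both comparisons. CDC23 had 132, 112 and 116 in siCARLo-3, against 265, 227 and 226 in siCARLo-1 v3 and 414, 396 and 402 in siCARLo-4, and was lower than in both (-1.01 ± 0.11, adjusted p = 6.0e-07 and -1.76 ± 0.10, adjusted p = 9.4e-11). The same held for SKP2 (-0.70 ± 0.12, adjusted p = 7.3e-05 and -1.23 ± 0.11, adjusted p = 3.6e-08), RBL2 (-1.41 ± 0.19, adjusted p = 9.0e-06 and -0.74 ± 0.20, adjusted p = 0.0048) and GBA2 (-1.26 ± 0.14, adjusted p = 1.0e-06 and -1.08 ± 0.14, adjusted p = 4.1e-06). The calls of E2F1, ATF6B, CDC45, E2F4, CDC23, SKP2, RBL2, GBA2, GADD45A, YWHAB, YWHAE and YWHAH in these comparisons held under all their alternatives. Without siCARLo-1 v3 library 3 the differences from that group were -2.16 for E2F1, -1.06 for CDC23 and -0.82 for SKP2. CDK6 was lower than in siCARLo-1 v3 (log2 fold change -1.29 ± 0.24, adjusted p = 2.4e-04) but was not called against siCARLo-4 (-0.28 ± 0.26, adjusted p = 0.37), where the series-wide table called it (-0.74, adjusted p = 0.015). RBL1 (-0.30, adjusted p = 0.28 and -0.28, adjusted p = 0.28) and BRCA1 (-0.48, adjusted p = 0.064 and -0.30, adjusted p = 0.24) were called in neither comparison with TMM. CDC7 (-0.63, adjusted p = 0.024 and -0.46, adjusted p = 0.087) and NEK1 (-1.64, adjusted p = 2.1e-04 and -0.47, adjusted p = 0.25) were called lower against siCARLo-1 v3 alone. Each of these genes had a call that changed under some alternative. JUN was higher than in siCARLo-1 v3 (log2 fold change 0.90 ± 0.21, adjusted p = 0.0017), a call lost under 3 scalings, and was not called against siCARLo-4 (0.02 ± 0.19, adjusted p = 0.93).

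Of 10 mitotic cyclin and entry genes 6 were higher than in siCARLo-1 v3, 2 lower and 2 not called (list median 0.43). Over all tested genes 28.1% were higher and 27.0% lower in that comparison. Against siCARLo-4, 1 of the 10 was higher, 3 lower and 6 not called (list median -0.21), where 22.5% of all tested genes were higher and 21.3% lower. Of 6 spindle checkpoint genes 3 were higher, 0 lower and 3 not called in each comparison. These list counts were made with TMM alone. CCNB1 had 1874, 1867 and 1851 in siCARLo-3, against 1253, 1246 and 764 in siCARLo-1 v3 and 1988, 1942 and 1923 in siCARLo-4. It was higher than in siCARLo-1 v3 (log2 fold change 0.78 ± 0.12, adjusted p = 3.6e-05, and 0.58 without siCARLo-1 v3 library 3, which was the lowest), a call that the series-wide table ended (0.38, adjusted p = 0.11), and was not called against siCARLo-4 (-0.07 ± 0.12, adjusted p = 0.65). CCNB2 (0.99 ± 0.11, adjusted p = 6.0e-07), PLK1 (1.01 ± 0.15, adjusted p = 1.9e-05), BUB1 (0.96 ± 0.10, adjusted p = 3.9e-07), MAD2L1 (1.16 ± 0.19, adjusted p = 4.8e-05) and PTTG1 (0.80 ± 0.10, adjusted p = 1.7e-06) were higher than in siCARLo-1 v3 under every alternative. Without siCARLo-1 v3 library 3 their differences were 0.82, 0.81, 0.85, 0.94 and 0.72, all called. CCNB2 (0.52 ± 0.10, adjusted p = 4.2e-04), BUB1 (0.37 ± 0.09, adjusted p = 0.0031) and MAD2L1 (0.86 ± 0.18, adjusted p = 7.3e-04) were also called higher against siCARLo-4. Of 5 other scalings, 3 ended the call of CCNB2, 4 that of BUB1 and 1 that of MAD2L1, and the sign of BUB1 turned in the series-wide table. PLK1 was not called against siCARLo-4 with TMM (-0.27 ± 0.14, adjusted p = 0.11). It was called lower in the series-wide table (-0.70, adjusted p = 0.012) and with the 2 groups alone (-0.29, adjusted p = 0.012). PTTG1 was lower than in siCARLo-4 (-0.27 ± 0.09, adjusted p = 0.023), a call lost without siCARLo-3 library 1 or 3 or siCARLo-4 library 2. CDC25B (-0.47 ± 0.08, adjusted p = 1.3e-04), PKMYT1 (-0.65 ± 0.21, adjusted p = 0.014) and ESPL1 (-0.44 ± 0.18, adjusted p = 0.042) were lower than in siCARLo-1 v3. All of these were lower than in siCARLo-4 too (CDC25B -1.47 ± 0.08, adjusted p = 4.5e-11, PKMYT1 -1.12 ± 0.19, adjusted p = 8.0e-05 and ESPL1 -1.28 ± 0.16, adjusted p = 2.4e-06), under every alternative. Against siCARLo-1 v3 the calls of PKMYT1 and ESPL1 were lost without siCARLo-3 library 3 or siCARLo-1 v3 library 1, and that of ESPL1 also without siCARLo-1 v3 library 2 and with the 2 groups alone. CCNE1 was lower in both comparisons (-0.92 ± 0.14, adjusted p = 2.6e-05 against siCARLo-1 v3 and -0.56 ± 0.14, adjusted p = 0.0027 against siCARLo-4). MYC was lower than in siCARLo-1 v3 (log2 fold change -0.83 ± 0.06, adjusted p = 3.5e-09) and higher than in siCARLo-4 (0.38 ± 0.06, adjusted p = 4.2e-05), the second of which was lost under 3 scalings and lay at -0.05 in the series-wide table.

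**Figure D5:**
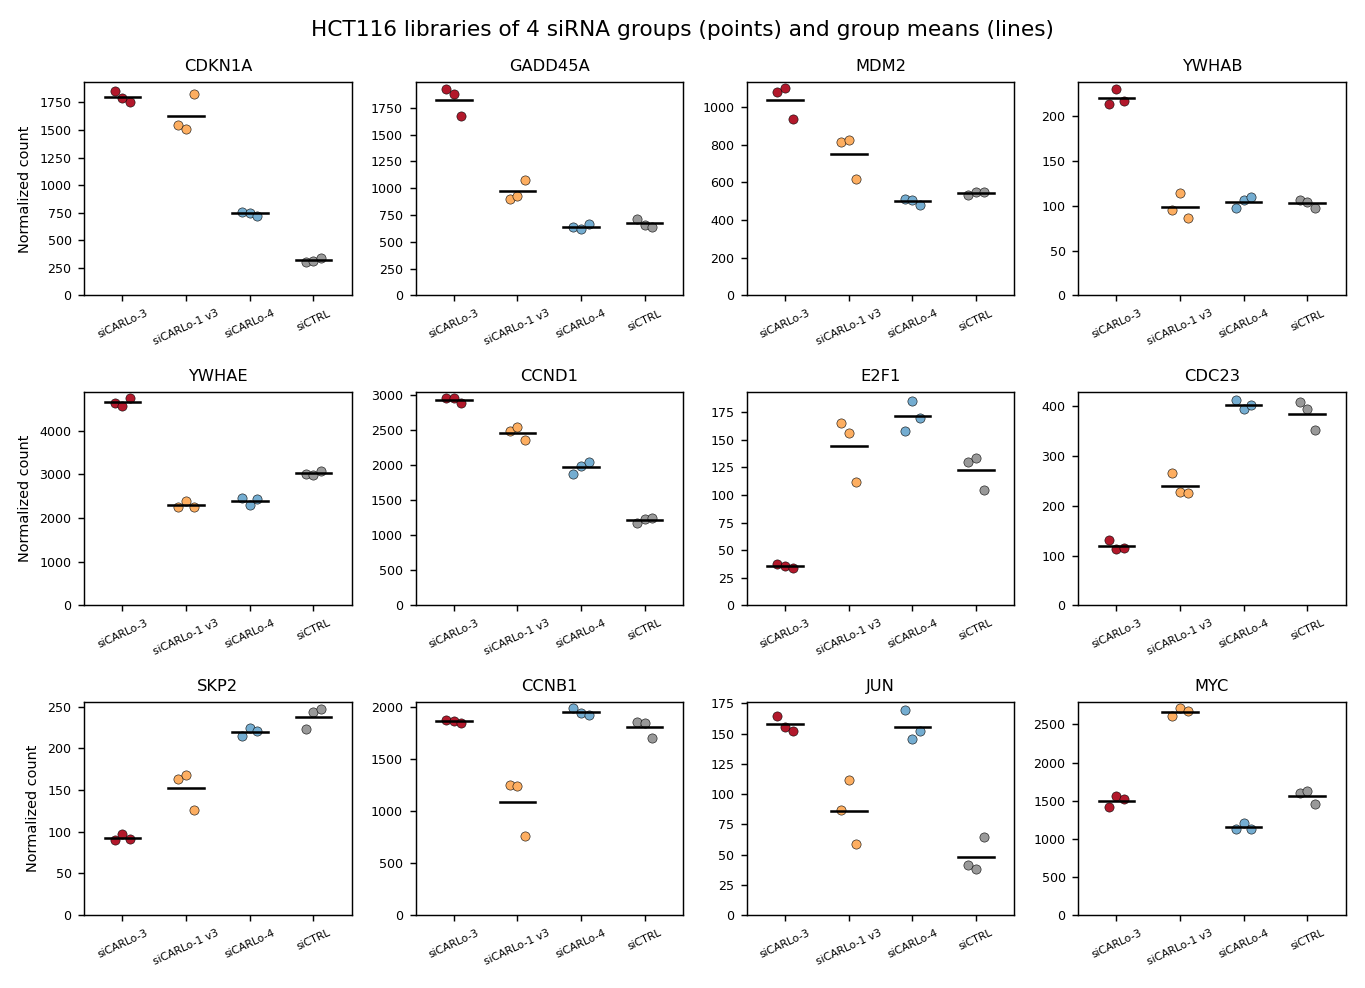
Normalized counts of 12 genes in the 3 libraries (points, with the mean as a line) of siCARLo-3, siCARLo-1 v3, siCARLo-4 and siCTRL, each axis starting at 0. YWHAB is highest in siCARLo-3 among these 4 groups, E2F1, CDC23 and SKP2 are lowest there, and JUN is about level between siCARLo-3 and siCARLo-4.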

How the data were processed

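The deposited group tables hold raw molecule counts per probe, and the series-wide table holds a score: counts that the authors had rescaled, as seen from positive controls that sum to one value per set of libraries. Per the labels, total RNA was extracted with TRIZOL. For probe design, instrument runs, image analysis and the siRNA sequences, nothing was given in the sources used here. Accessions of 178 probes matched RefSeq and 11 did not.

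The members, gene lists and named genes were chosen with earlier results of these data known. Named were the 12 largest called rises and falls with non-overlapping libraries and a mean of at least 20 normalized counts in 1 group, 17 cell cycle genes whatever their value, and list members. Genes named outside that rule (MAPK8, ARF1, ARF3, CDH1, GBA2, RPS6KA1, NEDD8, RPA1, RPA2, PRIM1, PRIM2, POLA2, NACAP1, POLR1C, POLR1D, and those of the closing observations) were chosen after their values were seen. Some genes that these rules name are not reported here.

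The edgeR quasi-likelihood F test was fitted to the raw counts of all 18 HCT116 libraries in 6 groups (common dispersion 0.00828, a coefficient of variation of 9.10%), with TMM factors of 0.927 to 1.11 over all 189 genes. A gene was tested if above background, the mean plus 2 SD of 8 negative probes, in at least 3 libraries, which left out 11 genes (ATM, CCNA1, CCND2, CREB3L1, GADD45G, PRB1, RPA3, SHH, TBX2, TWIST1 and WEE1). Background was 4.64 to 6.38 counts in siCARLo-3 and 8.94 to 11.3 in siCTRL. Benjamini-Hochberg adjustment ran over all tested genes of a comparison. The 17 alternatives changed scaling, tool, filter, samples or block, and the fit was tested on simulated data. For the series-wide score, limma ran on log2 of the value plus 1. Software comprised Python 3.11.15 with SciPy 1.17.1 and pandas 2.3.3, and R 4.3.3 with DESeq2 1.42.0, edgeR 4.0.16 and limma 3.58.1.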

Additional observations from a re-analysis of the deposited data

How the results depend on the processing

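The count of 93 called genes (45 higher, 48 lower) stayed within 1.5 times under all 17 alternatives. It was 99 with positive controls (82 of them by at least 1.5-fold, against 55 with TMM), 86 with housekeeping genes, 92 with total counts, 102 with DESeq2, 81 with the series-wide table, 93 without a filter on low counts, 82 of 142 genes above a mean of 50 counts, 106 with the 2 groups alone, 84 to 89 without 1 library and 87 with siCTRL libraries 1 and 2 as 1 library. Those siCTRL libraries were the closest pair of replicates. An alternative chosen after seeing the data, which kept siCARLo-1 v3 library 3 out of the shared spread, gave 107. Whether replicate numbers pair the samples was not settled. Same-numbered libraries deviated together with correlations of 0.0014, 0.29 and 0.31. For siCARLo-3 libraries 2 and 3 these were their highest values, though library 2 also had 0.26 with siCTRL library 1. For siCARLo-3 library 1 the values were 0.0014, -0.015 and 0.010 with siCTRL libraries 1, 2 and 3. A replicate block called 92 genes against siCTRL, 93 against siCARLo-1 v3 and 82 against siCARLo-4. Against siCARLo-1 v3 the count of 98 ranged from 77 to 102 without 1 library and was 69 with the 2 groups alone. Against siCARLo-4 the count of 78 ranged from 70 to 79 without 1 library and was 97 with the 2 groups alone, 85 with DESeq2 and 105 in the series-wide table, and 82 genes passed 1.5-fold in the series-wide table, where 46 did with TMM. Over 35 named genes 573 of 589 alternative values stayed on their side of the threshold, 16 of them uncalled values of CDKN1B, CCNB1, CDK2 and CDK4 whose sign turned, 11 gained a call, 5 lost it and 0 turned sign with a call. Of the 93 calls 24 were lost without at least 1 of the 6 libraries, and no called value moved by over 1.5-fold. The total count, positive control, housekeeping and series-wide scalings all gave fewer rises than TMM, and the cause was not tested. Genes under about 20 counts, such as CDC14C, TGFB2 and TGFB3, are limited by depth.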

Other observations

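Genes named nowhere above held a few calls of size. ABL1, a tyrosine kinase gene, rose with TMM (0.46 ± 0.12, adjusted p = 0.0044) but lost its call under 4 scalings and lay at 0.05 with positive controls. TBC1D8 (-0.66 ± 0.18, adjusted p = 0.0048) and the phosphatase gene PTPRA (-0.43 ± 0.12, adjusted p = 0.0045) fell, as did PIK3R1, the regulatory subunit of PI3 kinase (-0.58 ± 0.21, adjusted p = 0.026), a call lost without siCARLo-3 library 3 (adjusted p = 0.090) or siCTRL library 1 (adjusted p = 0.096, range 2.3e-04 to 0.096 over its alternatives). PIK3CA, its catalytic partner, had 159, 111 and 68.3 normalized counts in siCARLo-3 and 162, 150.1 and 209.8 in siCTRL (-0.60 ± 0.26, adjusted p = 0.056). The nuclear export gene XPO1 fell (-0.38 ± 0.12, adjusted p = 0.011) and lost its call without siCARLo-3 library 3 (adjusted p = 0.064, range 2.6e-04 to 0.064 over its alternatives), while NXT1, an mRNA export factor, rose (0.47 ± 0.14, adjusted p = 0.0082) and lost its call under 4 scalings and without siCTRL library 2 (adjusted p = 0.055, range 0.0019 to 0.73 over its alternatives).

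Among the spiked positive controls themselves, probe A stood 0.39 higher and probe E 0.43 lower in siCARLo-3 than in siCTRL on the log2 scale, relative to the mean of the 6 probes. Probe E had 8 to 30 counts in siCARLo-3 and 23 to 39 in siCTRL. These shifts are as large as many called changes of endogenous genes, and their part in those was not tested.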
